A study of Mus musculus with 2 samples.

Results

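Bone morphogenetic proteins (BMPs) were examined through 10 genes chosen by symbol: the ligands Bmp2, Bmp4, Bmp5, Bmp6, Bmp7 and Bmp8b, the type I receptor Bmpr1a, and the extracellular modulators Chrd, Nog and Bmper. All 10 symbols matched, out of 32285 genes measured, and 214 of 229480 accessibility peaks lay within 50 kb of one of their starts. RNA and open chromatin had been read from the same nuclei of pooled mouse embryos at embryonic day 7.0 (a single-nucleus multiome), with 1 RNA library and 1 accessibility library. The title, age and protocol labels named E7.0 embryos, whereas the cell type, tissue and strain labels named goblet cells, the 8th section of the small intestine or the distal colon, and RedMUC298trTg. The 8 goblet and intestinal markers had 4389 UMIs (unique RNA molecules) in all 12796 nuclei kept, of which Vil1 had 3994, with 54.1% of these in visceral endoderm-like nuclei, and the goblet genes Muc2 and Tff3 had 17 and 6, against 235891 UMIs for 8 epiblast markers and 566898 UMIs for 10 visceral endoderm markers. No mutant, treatment or second stage was among the samples, and no barcode could be tied to an embryo.

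BMP ligands are secreted dimers that bring type I and type II serine/threonine kinase receptors together, and the receptors phosphorylate SMAD1, SMAD5 and SMAD9. Chordin and Noggin bind ligands outside the cell and block receptor access, and some proteases of the BMP1/tolloid family cut Chordin. In the gastrulating mouse embryo, BMP4 from the extraembryonic ectoderm is known for its part in mesoderm and germ cell formation, while the node is known as a source of Chordin and Noggin.

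Nuclei were clustered without the 10 genes or the other pathway genes among the clustering genes, and clusters were named from marker lists that hold no member. The 14 cell groups of at least 100 nuclei were 9 named classes, written "X-like", and 5 clusters left unnamed. They ran from 107 to 4253 nuclei, and 84.1% of nuclei were in one of the 9 named classes. Median depth per nucleus was 10471 UMIs and 17350 peak counts over all nuclei kept. Cluster 6 had a median of 1757 UMIs and cluster 19 had 25483 UMIs. The part of depth and of doublets in the values of these clusters was not tested. Visceral endoderm markers, summed, reached 17050 counts per 1000000 UMIs (CPM) in visceral endoderm-like nuclei, and in the epiblast-like class they were at 4.33% of that level. In the other 7 named classes outside visceral endoderm the same share ran from 4.16% to 4.89%, a like low share in every class. Bmp6, highest in visceral endoderm-like nuclei, is not read as expressed in a class at or below that share. For members highest in other groups the share is no measured floor, and the source of these UMIs was not tested. Of 7 other clusterings, 1 gave an anterior streak and definitive endoderm-like class (278 nuclei, against 455 here), and the node and axial mesoderm-like class held 281 to 915 nuclei in them, against 163 here. With 1 library per assay there was no replicate. Intervals are 95% intervals of counting error only, and no test between groups was possible.

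The promoters of 4 members are shown for the comparison of accessibility at the start: those of Bmp4, Bmp5 and Bmp8b were at least 2-fold more accessible in some group, and that of Chrd was not. The 250 bases before the start come from RefSeq (GRCm38.p6), 5′ to 3′ on the gene's strand, with CpG sites in capitals. Bmp4 lies on the minus strand at chr14:46390670-46390919, and Bmp8b on the plus strand at chr4:123104911-123105160. Bmp5 lies on the plus strand at chr9:75775115-75775364, and Chrd on the plus strand at chr16:20732877-20733126.
Bmp4: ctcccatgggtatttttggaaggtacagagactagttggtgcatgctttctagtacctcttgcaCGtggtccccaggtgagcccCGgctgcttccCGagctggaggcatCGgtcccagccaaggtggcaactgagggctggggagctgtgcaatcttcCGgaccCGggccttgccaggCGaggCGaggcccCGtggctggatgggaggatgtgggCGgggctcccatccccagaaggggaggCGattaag
Bmp8b: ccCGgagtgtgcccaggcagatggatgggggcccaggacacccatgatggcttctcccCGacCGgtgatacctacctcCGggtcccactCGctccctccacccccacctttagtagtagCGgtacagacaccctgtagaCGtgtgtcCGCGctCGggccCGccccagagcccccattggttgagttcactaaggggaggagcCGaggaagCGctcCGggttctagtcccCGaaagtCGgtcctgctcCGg
Bmp5: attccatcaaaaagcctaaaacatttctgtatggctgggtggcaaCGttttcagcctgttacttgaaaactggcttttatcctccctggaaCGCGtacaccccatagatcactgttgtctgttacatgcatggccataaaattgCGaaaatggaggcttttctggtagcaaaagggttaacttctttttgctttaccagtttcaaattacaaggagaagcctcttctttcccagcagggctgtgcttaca
Chrd: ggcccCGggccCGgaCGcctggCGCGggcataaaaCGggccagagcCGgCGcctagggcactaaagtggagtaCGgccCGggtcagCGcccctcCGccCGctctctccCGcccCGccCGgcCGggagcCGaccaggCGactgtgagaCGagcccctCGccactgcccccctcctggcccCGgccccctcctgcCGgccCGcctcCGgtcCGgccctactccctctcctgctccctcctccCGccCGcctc
The printed stretch held 4 CpG sites in Bmp5, 11 in Bmp4, 17 in Bmp8b and 28 in Chrd. In the full 300-base windows of the RefSeq table, the observed to expected CpG ratio was 0.28 for Bmp5, 0.42 for Bmp4, 0.73 for Bmp8b, 0.75 for Bmp6, 0.79 for Bmper, 0.80 for Chrd and 1.02 for Bmpr1a. The median over all 32851 windows was 0.38. The tables held no window for Bmp2, Bmp7 or Nog. Of 5 motifs searched on both strands, the SMAD1/5 element core GGCGCC was found in the Chrd and Bmpr1a windows and in 11.9% of all windows. The SMAD box CAGAC was found in 4 of the 7 member windows and in 49.6% of all windows. The E-box CACCTG was found in 2 of the 7 and in 20.2% of all windows. The GATA site AGATAA, found in 11.2% of all windows, was in no member window. The same held for the TATA box TATAAA, found in 13.6% of all windows. GGCGCC reads the same on both strands, no motif searched contains another, and a match describes letters only.

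Nearly every member had uneven RNA levels across the cell groups. RNA of 9 of the 10 genes was at least 2-fold higher in at least 1 group than in all other nuclei, where 45.3% of the 14374 genes with 200 or more UMIs met that rule in some group. The median of the largest ratio was 9.01 over the members and 1.87 over all genes tested. The members had been chosen with earlier results of these data known. Comparisons of members with all genes, here and below, are therefore not independent of that choice. Members are compared below with themselves across groups and not with each other, because UMI counts of nuclear RNA depend on gene length.

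**Figure D1:**
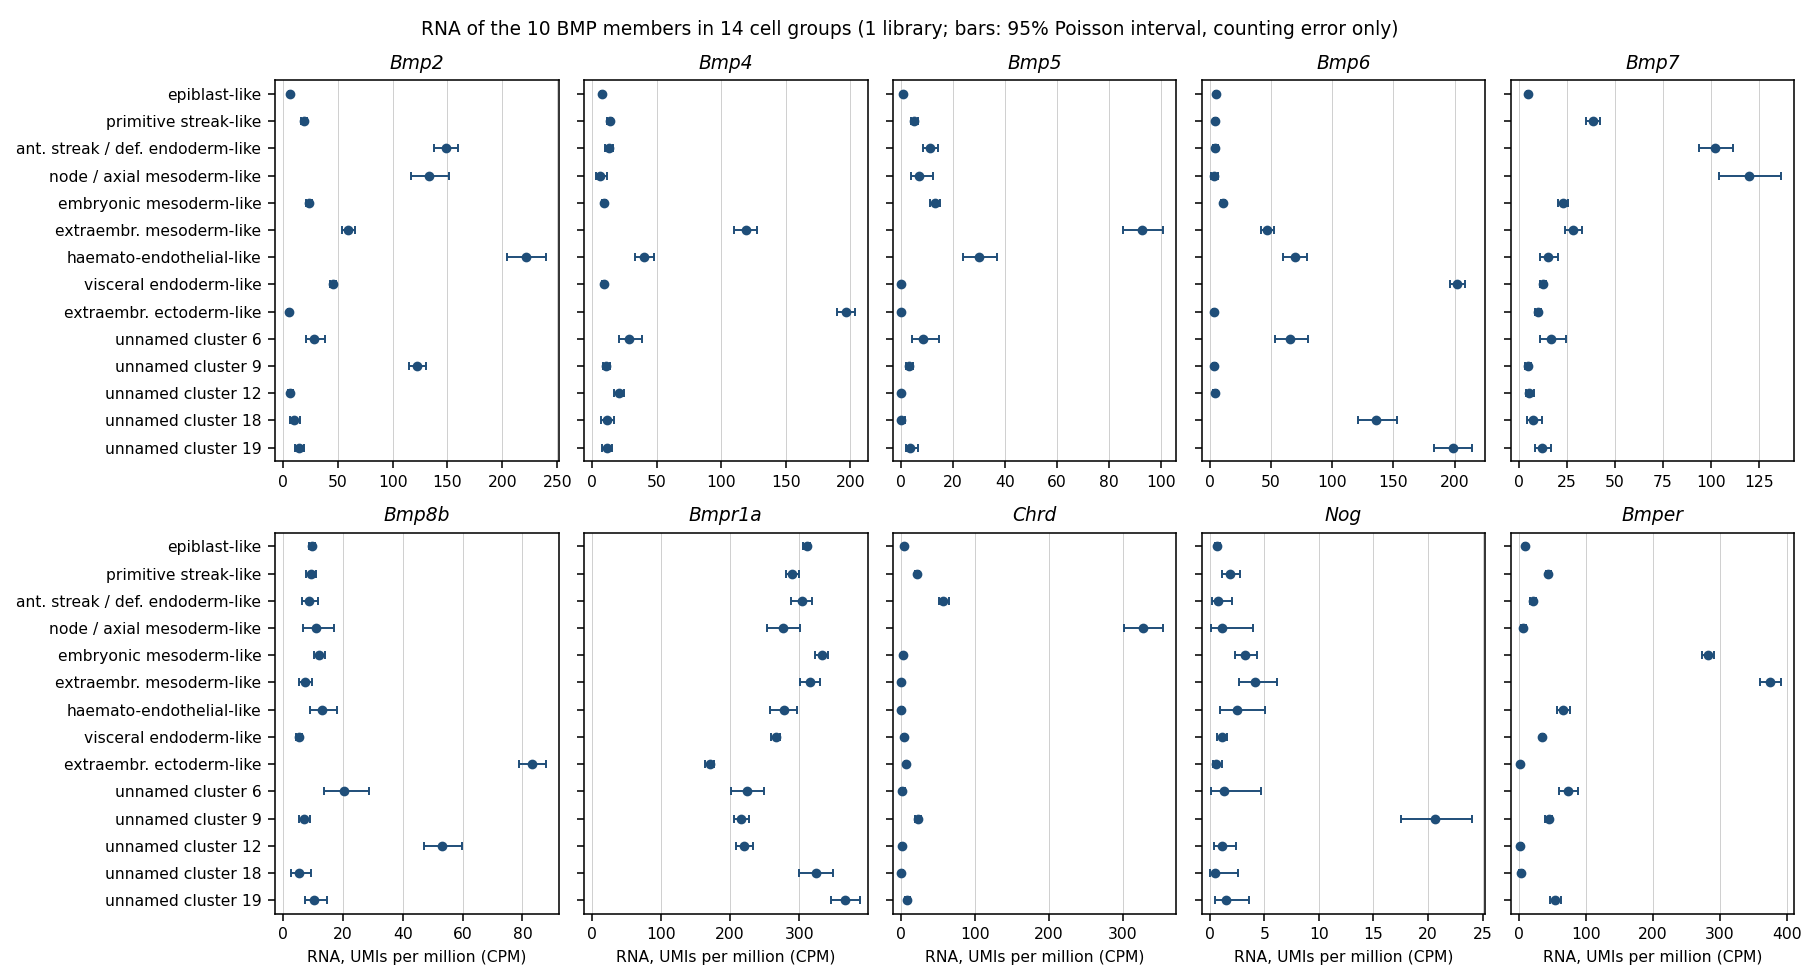
RNA level of each of the 10 genes (x axis, CPM, each panel with its own scale) in 14 cell groups (rows); points are pooled levels of 1 library and bars are 95% Poisson intervals. Bmp4 and Bmp8b stand highest in extraembryonic ectoderm-like nuclei, Bmp6 in visceral endoderm-like nuclei and cluster 19, Chrd in node and axial mesoderm-like nuclei, and Bmpr1a varies between 170.1 and 366 CPM.

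Bmp4, the ligand that signals from the extraembryonic ectoderm to the epiblast, had 60.7% of its UMIs in extraembryonic ectoderm-like nuclei. Its level ran from 6.65 CPM in node and axial mesoderm-like nuclei through a median of 12.2 CPM to 196 CPM (189 to 203) in extraembryonic ectoderm-like nuclei. Extraembryonic mesoderm-like nuclei followed at 119 CPM (110 to 128), and the ratio between these 2 groups was 1.65 (1.52 to 1.79). All other groups were at 40.2 CPM or below. Against all other nuclei the ratio was 12.3 (11.7 to 13.05) in extraembryonic ectoderm-like and 3.66 (3.38 to 3.97) in extraembryonic mesoderm-like nuclei. The mesoderm was split: extraembryonic mesoderm-like nuclei had 12.5-fold (10.4 to 15.2) the Bmp4 level of embryonic mesoderm-like nuclei, which were at 9.48 CPM. After thinning each nucleus to 5000 UMIs, Bmp4 was seen in 56.6% of extraembryonic ectoderm-like nuclei and in 3.85% of epiblast-like nuclei. The pooled epiblast-like level was 7.92 CPM. Extraembryonic ectoderm markers, summed, were at 33.4 CPM in epiblast-like and 898 CPM in extraembryonic ectoderm-like nuclei. Whether the epiblast-like Bmp4 UMIs reflect expression there was not tested. Across 20 clusters, the genes closest to Bmp4 in log2(CPM + 1) were Ccdc3 (Pearson r 0.91), Irf2 (r 0.87) and Igsf3 (r 0.85).

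Bmp8b, a ligand known for its part in germ cell formation, was highest in the same class, with 49.2% of its UMIs there. It was at 83.3 CPM (78.9 to 87.8) in extraembryonic ectoderm-like nuclei and 53.2 CPM (47.2 to 59.7) in unnamed cluster 12, led by Olr1, Vgll1 and Ascl2. The lowest group was cluster 18 at 5.22 CPM and the median was 10.0 CPM. The ratio to all other nuclei was 7.73 (7.16 to 8.33) in the first and 3.04 (2.68 to 3.43) in cluster 12. Bmp4 and Bmp8b parted in cluster 12: extraembryonic ectoderm-like nuclei exceeded it 9.36-fold (7.76 to 11.4) in Bmp4 but 1.57-fold (1.38 to 1.78) in Bmp8b. Within extraembryonic ectoderm-like nuclei, thinned, Bmp8b was seen in 36.3% (32.5 to 40.2) of nuclei with Bmp4 and in 31.2% (27.0 to 35.6) of nuclei without it. The nearly identical neighbour Bmp8a was at 29.4 CPM in the same class, 9.41-fold (8.23 to 10.8) the level elsewhere, and reads of these paralogs can be hard to assign. Oxct2b lies inside Bmp8b, and whether counting used strand is not given in the sources used here.

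Bmp5, a ligand known in skeletal development, was highest in extraembryonic mesoderm-like nuclei, where Bmp4 was high as well. It was at 92.8 CPM (85.3 to 101) in extraembryonic mesoderm-like nuclei, 29.98 CPM (23.95 to 37.1) in haemato-endothelial progenitor-like nuclei and 13.2 CPM (11.4 to 15.3) in embryonic mesoderm-like nuclei, with ratios to all other nuclei of 26.0 (22.99 to 29.4), 4.43 (3.51 to 5.53) and 2.01 (1.70 to 2.35). It had 3 UMIs in all extraembryonic ectoderm-like nuclei, 5 in visceral endoderm-like nuclei and 0 in clusters 12 and 18. Cluster 19, high in Bmp6, had 12 Bmp5 UMIs, or 3.70 CPM (1.91 to 6.47). The level in haemato-endothelial progenitor-like nuclei came from 85 UMIs, of which 1 nucleus held 20. Kif26b (r 0.94), Siah2 (r 0.93) and Fbln2 (r 0.92) had the most similar patterns over the 20 clusters. When the clustering was changed, only the clustering by accessibility again gave an extraembryonic mesoderm-like class, and in the groups that overlapped it most the ratio ran from 17.4 to 29.5.

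Bmp2, the close relative of Bmp4, was highest in 4 groups where Bmp4 was low or intermediate. It was at 222 CPM (205 to 240) in haemato-endothelial progenitor-like nuclei, 148 CPM (138 to 159) in anterior streak and definitive endoderm-like nuclei, 133 CPM (117 to 151) in node and axial mesoderm-like nuclei and 122 CPM (114 to 130) in cluster 9. The first exceeded the second by 1.49-fold (1.34 to 1.66), and the following neighbours among these 4 could not be separated at this depth. Extraembryonic mesoderm-like nuclei, second highest in Bmp4, came next at 59.6 CPM. Epiblast-like nuclei (6.002 CPM) and extraembryonic ectoderm-like nuclei (5.25 CPM) were lowest, and the median was 26.1 CPM. Ratios to all other nuclei were 7.19 (6.60 to 7.82), 4.86, 4.01 and 4.13 in the 4 high groups. The haemato-endothelial value was 3.85 with doublet calls kept, where that class held 790 nuclei in place of 261. Hhex, a transcription factor gene of anterior endoderm and early endothelium, was the closest gene to Bmp2 over the clusters (r 0.88).

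Bmp7 was highest in node and axial mesoderm-like and in anterior streak and definitive endoderm-like nuclei. Levels were 120 CPM (104 to 137) in node and axial mesoderm-like, 102 CPM (93.8 to 112) in anterior streak and definitive endoderm-like and 38.8 CPM (35.3 to 42.6) in primitive streak-like nuclei, against 4.91 CPM in epiblast-like nuclei. The ratio of the first to all other nuclei was 7.42 (6.42 to 8.53), and 4.48 at a finer clustering, where the class of that name held 290 nuclei, and 4.58 with members and pathway genes allowed among the clustering genes (281 nuclei). The first pair did not separate at this depth (ratio 1.17, 0.99 to 1.37), and the ratio of streak to epiblast was 7.91 (6.71 to 9.33). Epiblast-like clusters were not alike: cluster 14 was at 18.2 CPM and cluster 0 at 1.63 CPM, a ratio of 11.2 (6.48 to 19.3). The lowest group was cluster 9 at 4.71 CPM, a group in which Bmp2 was high. Within the streak, cluster 7, led by Wnt3a, had 4.90-fold (3.63 to 6.76) the Bmp7 level of cluster 13. Cluster 7 also exceeded cluster 13 in Chrd (17.96-fold, 8.97 to 42.1) and Bmp2 (4.05-fold, 2.72 to 6.26). Cluster 13 exceeded cluster 7 in Bmper (3.08-fold, 2.56 to 3.72) and Bmp4 (2.21-fold, 1.60 to 3.08). These are pooled levels of clusters formed without the members, and co-detection within streak-like nuclei was not examined.

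Bmp6, a ligand known in adult liver for iron control through hepcidin, belonged to visceral endoderm. It was at 202 CPM (197 to 208) in visceral endoderm-like nuclei, with 68.8% of its UMIs there, and at 199 CPM (183 to 214) in cluster 19 and 136 CPM (121 to 153) in cluster 18. The lowest level was 3.32 CPM in node and axial mesoderm-like nuclei and the median was 7.89 CPM. The ratio of visceral endoderm-like nuclei to all others was 11.9 (11.3 to 12.5), 17.7 without clusters 6 and 19, and 3.45 with higher depth minimums, where the class of that name held 985 nuclei. In epiblast-like nuclei Bmp6 was at 2.55% of its visceral endoderm-like level, under the 4.33% of the visceral endoderm marker list, and no expression is read from it. Extraembryonic mesoderm-like (47.0 CPM, 23.2%) and haemato-endothelial progenitor-like nuclei (69.5 CPM, 34.3%) were above it, and embryonic mesoderm-like nuclei, at 5.25%, were above the 4.16% of the marker list there. Slc30a7 (r 0.93), Tifa (r 0.92) and Snap23 (r 0.91) were closest over the clusters.

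The visceral endoderm-like clusters differed in their ligands. Cluster 5 had 288 CPM (279 to 297) of Bmp6, cluster 16 had 71.9 CPM (60.3 to 85.05) and cluster 11 had 41.6 CPM (36.7 to 47.0). Unnamed cluster 9 had 3.95 CPM (2.68 to 5.60). In cluster 9 the visceral endoderm markers summed to 5959 CPM, Sfrp5 and Fzd5 were among the leading genes, and the anterior streak and definitive endoderm markers summed to 1349 CPM. The latter list was at 224 CPM in visceral endoderm-like nuclei and 2418 CPM in the class of that name. Bmp2 was at 26.9 CPM in cluster 5, 11.6 CPM in cluster 16, 99.1 CPM in cluster 11 and 122 CPM in cluster 9, so both ligands were lower in cluster 16 than in cluster 5, while Bmp2 was higher and Bmp6 lower in clusters 11 and 9. The 5 to 11 ratio was 6.92 (6.11 to 7.87) for Bmp6, and the 11 to 5 ratio was 3.69 (3.25 to 4.20) for Bmp2 and 10.7 (8.96 to 12.95) for Bmper. Over all visceral endoderm-like nuclei, thinned to 5000 UMIs, Bmp2 was seen in 9.63% (7.67 to 11.9) of nuclei with Bmp6. Without Bmp6 it was seen in 20.7% (17.9 to 23.6), but this class pools clusters 5, 16 and 11. Within single clusters, thinned alike, the intervals of nuclei with and without Bmp6 overlapped, which does not show equal shares. In cluster 5, Bmp2 was seen in 8.08% (6.16 to 10.4) of nuclei with Bmp6 and in 13.5% (10.1 to 17.6) of those without. In cluster 11 these shares were 29.4% (18.98 to 41.7) and 32.8% (27.9 to 37.9). Bmper in cluster 11 was seen in 22.1% (12.9 to 33.8) of nuclei with Bmp6 and 34.5% (29.5 to 39.7) of those without, and Bmp2 in 36.03% (27.98 to 44.7) of nuclei with Bmper and 30.4% (25.1 to 36.1) of those without.

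**Figure D2:**
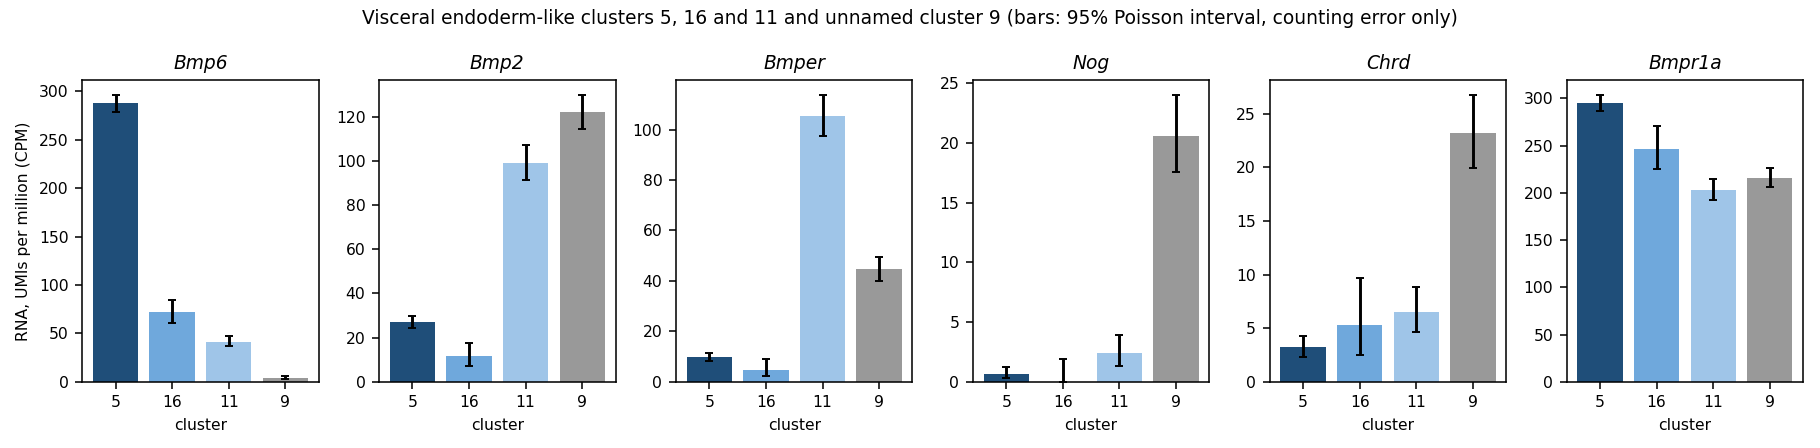
RNA level (y axis, CPM, from 0) of 6 members in visceral endoderm-like clusters 5, 16 and 11 and in unnamed cluster 9 (x axis); bars are levels pooled over nuclei of 1 library with 95% Poisson intervals. Bmp6 falls from 288 CPM in cluster 5 to 3.95 CPM in cluster 9, Bmp2 and Bmper are highest in clusters 9 and 11, and Nog and Chrd are highest in cluster 9.

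The receptor gene Bmpr1a was present everywhere. Its level ran from 170.1 CPM (164 to 177) in extraembryonic ectoderm-like nuclei through a median of 284 CPM to 333 CPM (323 to 342) in embryonic mesoderm-like nuclei and 366 CPM (346 to 388) in cluster 19. No group was 2-fold higher than the rest, and 10 of the 13 steps between neighbours in the order had an interval that held 1. The lowest named class was the one with most Bmp4 and Bmp8b RNA: extraembryonic ectoderm-like nuclei had 0.547 (0.525 to 0.570) of the epiblast-like level. Even there, Bmpr1a was seen in 50.1% of thinned nuclei with Bmp4 and 55.2% of those without.

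The antagonists Chrd and Nog were high in few groups. Chrd was at 327 CPM (301 to 355) in node and axial mesoderm-like nuclei, 57.8 CPM (51.3 to 64.8) in anterior streak and definitive endoderm-like nuclei, 23.2 CPM in cluster 9 and 21.8 CPM in primitive streak-like nuclei. In extraembryonic mesoderm-like nuclei it had 4 UMIs, or 0.671 CPM (0.183 to 1.72). The ratio of node and axial mesoderm-like to all other nuclei was 38.2 (34.6 to 42.2), and the drop to the next group was 5.67-fold (4.91 to 6.54). The ratio was 17.97 when classes came from accessibility, where the class of that name held 902 nuclei in place of 163. Thinned, Bmp2 was seen in 38.2% (29.1 to 47.9) of node and axial mesoderm-like nuclei with Chrd and in 20.9% (10.0 to 36.0) of those without, and these intervals overlap. Foxj1 and Pkd1l1, genes of motile and node cilia and markers used to name this class, were among the closest to Chrd (r 0.89 and 0.88). Thpo overlaps Chrd in the RefSeq annotation.

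Nog, which binds BMP2 and BMP4 tightly, had 438 UMIs in all nuclei kept. It was at 20.6 CPM (17.6 to 24.1) in cluster 9, 10.3-fold (8.43 to 12.5) the level of all other nuclei, and at 4.20 CPM or below in the other 13 groups. Node and axial mesoderm-like nuclei held 2 Nog UMIs, or 1.11 CPM (0.134 to 4.002). Cluster 9 exceeded visceral endoderm-like nuclei 18.8-fold (12.3 to 29.96). The parietal endoderm-like class, too small at 32 nuclei for the counts above, had 92 UMIs or 234 CPM (189 to 288), and 24 of its nuclei had at least 1 Nog UMI. Those 32 nuclei held 21.0% of all Nog UMIs, and the 513 nuclei of cluster 9 held 37.0%. Gm2018 starts 391 bp from Nog. At a coarser clustering the ratio in the cluster overlapping cluster 9 was 6.33.

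Bmper, which binds BMPs outside the cell and can promote or inhibit signalling, was highest in the mesoderm-like classes among the 14 groups. It was at 375 CPM (360 to 391) in extraembryonic mesoderm-like and 282 CPM (274 to 291) in embryonic mesoderm-like nuclei, and no other of these groups passed 73.2 CPM. Ratios to all other nuclei were 7.50 (7.15 to 7.87) and 7.03 (6.75 to 7.33). The first was 4.07 at a coarser clustering and 4.41 with doublet calls kept, in the groups that overlapped the class most. Extraembryonic ectoderm-like nuclei were lowest at 2.72 CPM (1.97 to 3.65), and the median was 40.0 CPM. The 32 parietal endoderm-like nuclei, outside those groups, had a higher level of 708 CPM (628 to 797), from 278 UMIs. In extraembryonic mesoderm-like nuclei, thinned, Bmper was seen in 59.1% (51.9 to 66.0) of nuclei with Bmp4 and in 71.9% (66.6 to 76.7) of those without. Wnt5a (r 0.86) was among the genes closest to Bmper.

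Promoters of the members differed less between groups than their RNA. Promoter counts, summed over peaks from 1000 bp before to 100 bp after a start, were at least 2-fold higher in some group for 4 of the 10 members, where 22.4% of 20477 promoters met that rule. The median of the largest promoter ratio was 1.49 over members and 1.47 over all promoters tested. Those 4 were Bmp4 in extraembryonic ectoderm-like nuclei (4.35, 4.003 to 4.72), Bmp5 in anterior streak and definitive endoderm-like nuclei (3.68, 2.51 to 5.26), Bmp8b in extraembryonic ectoderm-like nuclei (2.50, 2.24 to 2.79) and Bmp2 in haemato-endothelial progenitor-like nuclei (2.22, 1.76 to 2.77). By level in CPM, the highest RNA group was also the highest promoter group for 4 members, Bmp2, Bmp4, Bmp7 and Bmp8b, where this held for 20.7% of 13436 genes. For Bmp7 this rests on levels of 57.6 CPM in node and axial mesoderm-like and 57.2 CPM in primitive streak-like nuclei, and by the ratio to all other nuclei the latter was highest (1.17, 1.08 to 1.28). Summed distal peaks shared the highest group with RNA for 6 members, Bmp4, Bmp6, Bmp7, Bmp8b, Chrd and Nog, where this held for 21.4% of 14202 genes.

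**Figure D3:**
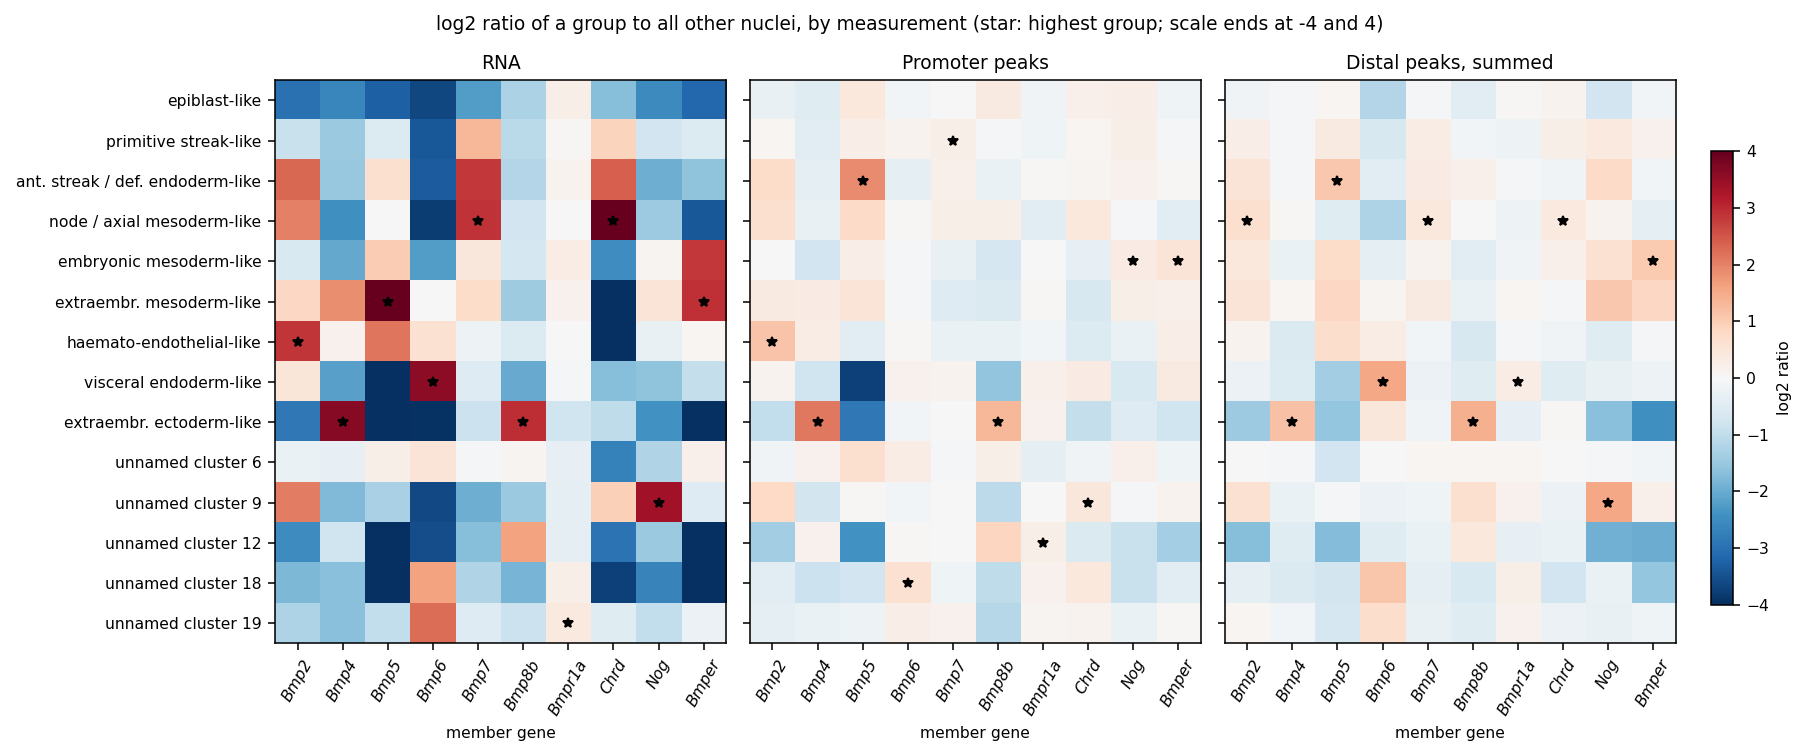
Colour gives the log2 ratio of a group (rows) to all other nuclei for RNA, promoter peaks and summed distal peaks of the 10 genes (columns), limited to between -4 and 4; stars mark the group with the highest ratio. Colours are strongest for RNA, and among promoters only Bmp2, Bmp4, Bmp5 and Bmp8b reach a 2-fold higher ratio.

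For the 7 members with a window, the range of the promoter ratio over groups is given in the order of their CpG ratio, which it did not follow throughout. Bmp5, with the lowest CpG ratio, ran from 0.07 in visceral endoderm-like nuclei to 3.68. Bmp4 ran from 0.55 to 4.35, Bmp8b from 0.33 to 2.50, Bmp6 from 0.77 to 1.54 and Bmper from 0.39 to 1.43. Chrd ran from 0.51 to 1.37, while its RNA ratio reached 38.2, and Bmpr1a from 0.75 to 1.19. The RefSeq window of Bmp6, chr13:38345466-38345765, lies downstream of the start in the deposited files (38345107) from which its promoter peaks were counted. In node and axial mesoderm-like nuclei the Chrd promoter ratio was 1.34 (1.001 to 1.75). The Bmp5 promoter was most open outside the class with most RNA, and its ratio was 1.44 (0.84 to 2.32) in extraembryonic mesoderm-like nuclei. The Bmp4 start had a second promoter peak, at chr14:46391488-46392290 (build mm10), with 51.9 CPM in extraembryonic ectoderm-like nuclei and 5.69 CPM elsewhere, a ratio of 9.12 (8.11 to 10.3). The peak over the start, chr14:46390116-46390941, which contains the printed Bmp4 stretch, had a ratio of 2.17 (1.90 to 2.47).

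Single distal peaks were as variable as distal peaks in general. Of 138 distal peaks with 200 or more counts near members, 99 (71.7%) were at least 2-fold higher in some group, against a background of 74.6%. Over all 165 such peaks of any kind, 111 were, against a background of 68.9%. The median of the largest ratio was 2.64 for member distal peaks and 2.79 for all distal peaks. In the group with the highest RNA of its gene, 42 of the 138 (30.4%) were 2-fold higher, from 15.8% for Chrd and Bmpr1a to 66.7% for Nog, and over those groups the share of all distal peaks ran from 7.96% to 14.3%. What follows describes which group each peak favoured, for peaks given by their mm10 coordinates.

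**Figure D4:**
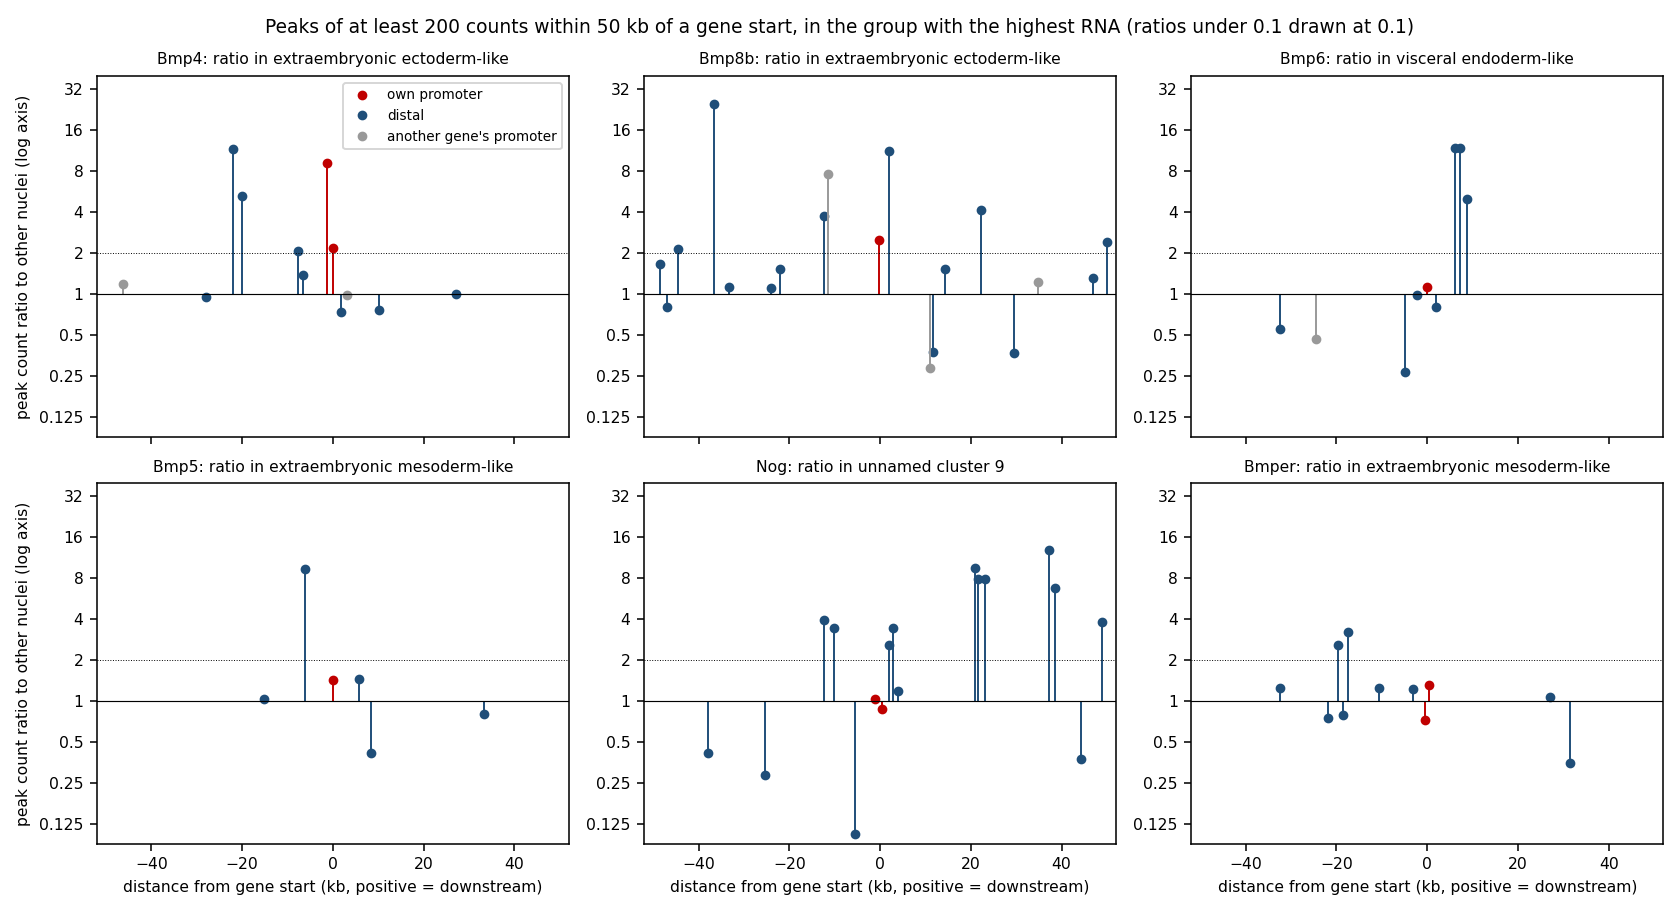
Each stem is a peak of at least 200 counts, placed by distance from the gene start (x axis, kb, negative upstream) with the ratio of its counts in the group with the highest RNA of that gene to all other nuclei (y axis, log scale); red is the gene's own promoter, blue distal, grey another gene's promoter. Bmp8b has a peak at 25.01-fold and Nog a series of peaks from 6.85 to 12.9-fold downstream, while their promoters stay at 2.50 or below.

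Near Bmp4, the peak at chr14:46412310-46413209, 22090 bp upstream, had 28.4 CPM in extraembryonic ectoderm-like nuclei and 2.44 CPM elsewhere, a ratio of 11.7 (9.84 to 13.8). It was at 1.46 CPM in extraembryonic mesoderm-like nuclei, the other group high in Bmp4 RNA. That class instead led a peak 46281 bp upstream, inside the promoter window of the neighbour Gm15221, by 4.16-fold (3.43 to 5.02). Near Bmp8b, the peak at chr4:123068000-123068924, 36703 bp upstream, was at 30.9 CPM in extraembryonic ectoderm-like nuclei, 6.45 CPM in cluster 12 and 1.24 CPM over all nuclei outside that class, a ratio of 25.01 (20.5 to 30.7). Another, 1909 bp downstream of the start at chr4:123106614-123107535, had a ratio of 11.3 (9.35 to 13.8). Of 15 distal Bmp8b peaks tested, 6 (40.0%) were 2-fold higher in this class, where 12.6% of all distal peaks were.

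Distal peaks near Bmp6 were highest in different groups. Downstream of its start, peaks at chr13:38350902-38351570 and chr13:38351818-38352681 were higher in visceral endoderm-like nuclei by 11.9-fold (9.22 to 15.5) and 11.9-fold (10.2 to 14.1). The second was at 27.5 CPM there, 24.4 CPM in cluster 18, 10.99 CPM in cluster 19 and 7.52 CPM in cluster 9. Cluster 19 thus had less than cluster 18 at this peak but more Bmp6 RNA. At chr13:38312226-38313095, 32447 bp upstream, the highest group was extraembryonic ectoderm-like (12.8-fold, 10.7 to 15.4), where Bmp6 RNA was at 3.33 CPM. A peak 4809 bp upstream was 12.2-fold higher in extraembryonic mesoderm-like nuclei. Another, 8662 bp downstream, was 6.69-fold higher in haemato-endothelial progenitor-like and 4.97-fold higher in visceral endoderm-like nuclei. The Bmp6 promoter ratio in visceral endoderm-like nuclei was 1.12 (1.001 to 1.26).

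Around Nog, all 15 distal peaks tested were 2-fold higher in some group and 10 (66.7%) were so in cluster 9, where 13.5% of all distal peaks were. The highest was chr11:89264782-89265622, 37130 bp downstream, with 17.1 CPM in cluster 9, 10.8 CPM in anterior streak and definitive endoderm-like nuclei and 9.49 CPM in node and axial mesoderm-like nuclei. The last pair of classes had 4 and 2 Nog UMIs, so this peak was open in groups with almost no Nog RNA. The ratio of cluster 9 to all other nuclei was 12.9 (9.79 to 16.9). The main Nog promoter peak had a ratio of 0.88 (0.69 to 1.12) in cluster 9.

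Bmper and Bmp5 each had a distal peak that was highest in a mesoderm-like class. In extraembryonic mesoderm-like nuclei, highest in RNA of both among the 14 groups, 2 of 9 Bmper and 1 of 5 Bmp5 distal peaks tested were 2-fold higher. Of all distal peaks, 9.68% were. Summed distal peaks of Bmp5 were highest in anterior streak and definitive endoderm-like nuclei. A Bmper peak 21971 bp upstream was 5.06-fold higher in visceral endoderm-like nuclei. The Bmper peak at chr9:23205327-23206053, 17386 bp upstream, had 29.4 CPM in embryonic mesoderm-like and 15.9 CPM in extraembryonic mesoderm-like nuclei. Their order in Bmper RNA was the reverse. Over the 14 groups the peak level correlated with Bmper RNA (Pearson 0.94 and Spearman 0.96, from the same nuclei). This peak was picked for the largest ratio, also in the group with the highest RNA, so the correlation is not independent of that choice. The embryonic mesoderm-like ratio of the peak was 11.5 (9.88 to 13.4). The Bmp5 peak at chr9:75768838-75769724, 6083 bp upstream, had 8.76 CPM in extraembryonic mesoderm-like nuclei and 0.933 CPM elsewhere, a ratio of 9.39 (6.54 to 13.3), and was at 6.26 CPM in haemato-endothelial progenitor-like nuclei. For Chrd and Bmp7 the most restricted distal peaks were highest in visceral endoderm-like nuclei, where neither RNA was high: 9.83-fold (7.85 to 12.3) at chr16:20763170-20764014 and 6.97-fold (5.81 to 8.35) at chr2:172982472-172983363. In node and axial mesoderm-like nuclei the peak 2777 bp upstream of Chrd, which is also a promoter peak of Thpo, was 4.01-fold higher (3.15 to 5.04). Bmp2 had a distal peak 39380 bp downstream that was 6.83-fold higher (3.75 to 11.6) in node and axial mesoderm-like nuclei, from 30 counts.

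Of 52 other pathway genes listed, 36 had 200 or more UMIs and 25 of those were at least 2-fold higher in some group, against the 45.3% of all genes given above. The median of the largest ratio was 3.46. These lists, too, had been chosen with earlier results of these data known. Among receptors, 4 of 9 tested met the rule: Bmpr1b, an alternative type I receptor, was at 323 CPM in epiblast-like nuclei (8.02-fold, 7.74 to 8.30), Eng, an endothelial co-receptor, at 75.5 CPM in haemato-endothelial progenitor-like nuclei (12.9-fold, 11.05 to 15.01), Rgma, a glycosylphosphatidylinositol-anchored co-receptor, was 2.63-fold higher in embryonic mesoderm-like nuclei, and Acvr2a was 2.29-fold higher in the same class. The type II receptor Bmpr2, like Bmpr1a, did not reach 2-fold in any group (highest ratio 1.47). Bmpr1b was at 2.50 CPM in visceral endoderm-like nuclei, where Bmpr1a was at 266 CPM.

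Among other antagonists and modulators 7 of 9 tested met the rule. Cer1, a secreted inhibitor of BMP and Nodal, was 21.6-fold higher (20.4 to 22.8) in anterior streak and definitive endoderm-like nuclei at 449 CPM. Fstl3, a follistatin relative, was 17.1-fold higher (14.4 to 20.3) in cluster 12, and Chrdl1, a chordin relative, 8.38-fold higher (7.002 to 10.1) in epiblast-like nuclei. All 3 genes of the BMP1/tolloid family met it, in different groups. Tll1 did so in the Chrd-high node and axial mesoderm-like nuclei (418 CPM, 22.8-fold, 21.0 to 24.8). Bmp1 did so in the Bmp4-high extraembryonic ectoderm-like nuclei (81.1 CPM, 8.88-fold, 8.20 to 9.61). Tll2 did so in embryonic mesoderm-like nuclei (5.78-fold, 4.47 to 7.44, from 102 UMIs). Cleavage of Chordin was not measured. Of 4 SMAD mediators, Smad9 in visceral endoderm-like nuclei (11.1-fold, 9.90 to 12.5) and Smad1 in embryonic mesoderm-like nuclei (3.39-fold, 3.29 to 3.50) met it, and Smad5 and Smad4 had highest ratios of 1.72 and 1.37. Among genes known to respond to BMP, 8 of 10 met it, 5 of them with their highest ratio in extraembryonic mesoderm-like nuclei, where 2.14% of all genes tested were both 2-fold higher and at their highest ratio: Tbx3 (6.91-fold, 6.61 to 7.23), Msx2 (5.27-fold, 4.75 to 5.84), Smad6 (5.20-fold, 4.94 to 5.47), Msx1 (3.52-fold) and Bambi (3.18-fold). Smad7 (3.19-fold) and Id2 (4.76-fold) were highest in extraembryonic ectoderm-like nuclei. Id4 (4.40-fold) was highest in haemato-endothelial progenitor-like nuclei, while Id1 and Id3 did not reach 2-fold. The list of responding genes had been chosen with earlier results of these data known. The count for extraembryonic mesoderm-like nuclei was not recomputed in other clusterings, and 1 of 7 gave a class of that name. The remaining ligand list had 1 of 9 genes with enough UMIs, Bmp8a.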

How the data were processed

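RNA and chromatin accessibility were measured in the same nuclei of pooled embryos, with 15341 barcodes shared by both libraries. Per the file headers, the deposited matrix holds whole-number counts for each gene and each peak, and gene counts are UMIs. The authors used Cell Ranger ARC 2.0.0 and mm10, per the submitters' processing notes. The aligner, the peak caller and any strand setting are not given in the sources used here. Peaks count both ends of a fragment: 86.4% of nonzero values were even, so accessibility intervals came from the count divided by 2.

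The 10 members and all gene lists were chosen with earlier results of these data known. Filters required 1000 UMIs, 500 genes and 1000 peak counts per nucleus, with mitochondrial RNA no higher than 20%, and scrublet doublet calls (7.52% of barcodes) were removed, which left 12796 nuclei. These were clustered with scanpy 1.11.5 and leidenalg 0.10.2 on 2000 variable genes, 30 components and 15 neighbours at resolution 1, giving 22 clusters. A cluster took a name from the marker list with the highest mean log2(CPM + 1) difference (at least 0.5, with at least 3 markers raised 1.5-fold on 50 UMIs), unless another list led or rivalled it. This naming rule, the use of unnamed clusters as groups, the minimum of 200 UMIs or counts, the thinning to 5000 UMIs and the choice of cluster and co-detection pairs were set after the data were seen. Thinning left out 1609 nuclei with too few UMIs.

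CPM is counts scaled to a total of 1000000 per group. Ratios set a group against all other nuclei kept, with exact conditional binomial intervals, and CPM has exact Poisson intervals, and shares have Clopper-Pearson intervals, all at 95%. The interval method was tested on simulated Poisson counts, which hold counting error only and no further variation between nuclei. Strand and the promoter sequences came from RefSeq tables of GRCm38.p6. Promoter windows for peak counts were placed at the gene starts in the deposited files. Named pathway genes were the 3 per list with the largest ratio on at least 100 UMIs. Named similar genes were the 3 with the highest Pearson correlation over clusters of at least 100 nuclei. Named peaks were the main promoter peak and the distal peaks with the largest ratio in any group and in the group with the highest RNA. Acvr2a, Smad4, Smad7, Msx1, Bambi, Id1, Id2, Id3, Id4, Bmpr2 and peaks beyond these rules were chosen after their values were seen. Alternatives changed the depth minimums, doublet removal, resolution, variable genes, the source of classes, promoter and distance windows, fragment counts and count minimums.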

Additional observations from a re-analysis of the deposited data

How the results depend on the processing

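The counts of members and pathway genes with RNA at least 2-fold higher in a group were recomputed under other settings. So were the counts of members with such promoters, of such peaks, and of members whose highest RNA group was also highest in accessibility. There were 12 other settings, used as far as each bears on the count. A further 2 were added after seeing the data (named classes only, and without clusters 6 and 19). Of 63 values, 62 were within 1.5 times of the reported ones. The exception was the number of peaks at least 2-fold higher in a group, 111 within 50 kb and 53 within 20 kb, where fewer peaks are counted by construction. For counts of few members the bound of 1.5 times is wide, and which members made up each count was not compared. Of 77 values for the RNA ratio of a member in its highest group, none fell on the other side of 1, and 39 lay outside the counting interval of the reported ratio. The ratios ranged from 3.85 to 7.20 for Bmp2, 9.25 to 12.6 for Bmp4, 17.4 to 29.5 for Bmp5, 3.45 to 17.7 for Bmp6, 4.48 to 8.97 for Bmp7, 6.51 to 8.56 for Bmp8b, 4.07 to 9.15 for Bmper, 17.97 to 38.2 for Chrd and 6.33 to 10.6 for Nog. Named classes differed in size between clusterings, and the anterior streak and definitive endoderm-like class, on which values of Bmp2, Bmp7, Chrd and Cer1 rest, and the extraembryonic mesoderm-like class were each missing from 6 of 7, and no value was given where no group of that name, or overlapping it by at least 0.5 of their union, was found. The cause of each shift was not tested. No paired analysis was possible because each assay had 1 library and no result came from a test. Leaving out a replicate was not possible for the same reason. Nog, Bmp5 and the peaks of small groups rest on few counts, and ratios in groups with under 10 UMIs have wide intervals.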
